A study of Mus musculus and Homo sapiens with 34 samples.

Results

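The 10 genes described here belong to the WNT signalling pathway: the ligand genes Wnt7b, Wnt7a and Wnt4, the receptor genes Lgr4 and Lgr5, the membrane ubiquitin ligase genes Rnf43 and Znrf3, and Axin2, Nkd1 and Lef1, which act inside the cell. They were picked by name, as rows with these gene symbols (upper case in human cells) in 7 gene count tables, and they are 10 of 30194 gene symbols listed over those tables. The tables hold 34 RNA-seq libraries in 17 groups of 2, from mouse lung tumour organoids and a mouse lung cell line (22 libraries) and from human lung adenocarcinoma lines (12 libraries). Of the 10 genes, 9 were tested in the first experiment on 3154 organoids and 8 in the second, 8 in 1027B organoids, 5 in the 3311 line, 8 in H358 and 9 in each experiment on H1651. The others were under the filter on low counts or had no row in the table. Of 88 tests of a member against its matching control in 11 comparisons, 23 passed an adjusted p of 0.05 in edgeR's quasi-likelihood test, 17 of them upward and 6 downward. The share of all genes that passed ran from 0% to 46.8% over these comparisons, so the count is read against each comparison's own share. Passing that threshold is what "called" means below.

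The alleles reported here for the organoid line 3154 are p53frt, Rosa-FSF-CreERT2 and Hnf4aflox, so that 4-hydroxytamoxifen (4OHT) activates a Cre recombinase and deletes Hnf4a, the gene of an endodermal nuclear receptor. In the first experiment these organoids received 2 mM 4OHT or ethanol for 2 days, doses as labelled, and RNA was taken 2 weeks later. In the second, ethanol or 4OHT was combined with vehicle or with the small-molecule inhibitor MRTX1133 at 3 nM, with 48 h as the labelled time. No 4OHT dose is given for this second experiment, and the labels do not separate the time since 4OHT from the time on the drug, so the age of the deletion there is not stated. For the organoid line 1027B and the cell line 3311 the alleles are p53frt, Rosa-FSF-CreERT2, Foxa1flox and Foxa2flox, and their labels name no treatment that acts on the floxed alleles. Line 1027B received vehicle, 10 nM trametinib (a MEK inhibitor) or 20 nM MRTX1133, and 3311 received vehicle or 50 nM trametinib, both for 48 h. The human line H358 received vehicle or 20 nM trametinib for 48 h, and H1651 the same. In a further experiment H1651 cells with a lentiviral HNF4A construct were grown without doxycycline or with 1 µg/mL for 7 days. Every group is a single line in culture, and nothing states that the 2 libraries of a group came from separate animals or cultures, so the p-values measure only the spread between these samples. The organoids grew in L-WRN conditioned medium, which as background is a source of WNT3A, R-spondin and Noggin for control and treated groups alike. The lines 3311, H358 and H1651 grew in serum-containing media.

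WNT ligands are lipid-modified secreted proteins that bind Frizzled receptors, and in the canonical branch they stop the destruction of beta-catenin, which then acts with TCF and LEF proteins on target genes. RNF43 and ZNRF3 remove Frizzled from the cell surface, R-spondins bound to LGR4 or LGR5 hold them back, and AXIN2 and NKD1 restrain the signal inside the cell. AXIN2, NKD1, LGR5, LEF1, RNF43 and ZNRF3 are themselves common targets of the pathway, which makes them feedback genes and widely used readouts. In the lung WNT7B is a ligand of the epithelium, and WNT signals maintain a share of alveolar type 2 cells.

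Promoter sequences were read for 7 of the 10 genes from RefSeq (GRCm38.p6) and were searched because members moved in opposite directions after Hnf4a deletion. No window was at hand for Wnt7b, Lgr5 and Znrf3, so these genes were not searched. The 250 bases before the RefSeq start site are shown for Wnt4, which rose, for Lgr4, which was lower, and for Axin2. Axin2 fell with inhibitors in 1027B organoids and was called in no other comparison without a replicate block. In GENCODE the Wnt4 gene begins at chr4:137277489, which lies inside the Wnt4 window. All sequences are 5′ to 3′ on the plus strand, with capitals marking matches to GGAATG on either strand.
Wnt4, chr4:137277385-137277634: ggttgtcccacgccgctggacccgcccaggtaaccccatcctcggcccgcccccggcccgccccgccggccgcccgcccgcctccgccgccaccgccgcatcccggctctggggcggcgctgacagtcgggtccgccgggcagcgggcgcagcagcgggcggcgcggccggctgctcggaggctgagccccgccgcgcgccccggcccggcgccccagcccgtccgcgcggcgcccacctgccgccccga
Lgr4, chr2:109917397-109917646: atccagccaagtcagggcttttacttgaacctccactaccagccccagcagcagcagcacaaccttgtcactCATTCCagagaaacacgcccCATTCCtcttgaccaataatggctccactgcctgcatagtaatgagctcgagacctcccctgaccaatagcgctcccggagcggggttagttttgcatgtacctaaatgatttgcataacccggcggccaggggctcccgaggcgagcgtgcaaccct
Axin2, chr11:108920099-108920348: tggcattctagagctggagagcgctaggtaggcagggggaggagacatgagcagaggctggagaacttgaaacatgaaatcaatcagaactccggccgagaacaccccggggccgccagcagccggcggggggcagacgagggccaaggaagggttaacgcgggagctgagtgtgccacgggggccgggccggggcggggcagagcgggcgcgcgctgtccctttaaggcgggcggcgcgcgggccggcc
The motifs searched, on both strands of the 300 bases from 250 before to 50 after each start, were the TCF/LEF forms CTTTGAT and CTTTGTT, the HNF4 form CAAAGTCC, the shorter HNF4 form CAAAGTC contained in it, and the TEAD form GGAATG. Lgr4 held 2 matches to GGAATG, and 1 of 4 Lef1 windows held 1 match to CAAAGTC. No other of the 11 windows of the 7 genes held any of these letters. Among all 32851 promoters of that length the shares with a match were 3.73% for CTTTGAT, 5.85% for CTTTGTT, 1.42% for CAAAGTCC, 4.44% for CAAAGTC and 14.7% for GGAATG. A match is a string of letters, not a binding site.

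Levels differed widely between the genes. On a scale per length (RPKM, computed here with GENCODE exon lengths), in ethanol-treated 3154 organoids of the 2-week experiment Wnt7a stood highest at 38.4 ± 12.5 (SD, n = 2 here and in every group below). Lgr4 followed at 8.33 ± 3.49, Wnt7b at 4.53 ± 0.12 and Rnf43 at 4.45 ± 1.97, and Wnt7b and Rnf43 do not separate beyond that spread. Wnt4 at 0.82 ± 0.24 and Znrf3 at 0.68 ± 0.14 also overlapped. Nkd1, Axin2 and Lgr5 came last at 0.28 ± 0.11, 0.098 ± 0.115 and 0.0022 ± 0.0031. In 4OHT-treated organoids of that experiment Wnt7b had moved to second place at 30.4 ± 0.27 RPKM, beside Wnt7a at 38.9 ± 5.57. In vehicle-treated 1027B organoids Wnt7a again led at 31.5 ± 2.63, ahead of Lgr4 at 15.2 ± 3.41, with Wnt7b at 4.14 ± 1.40. The vehicle-treated 3311 line had another order: Rnf43 at 4.02 ± 0.69 and Lgr4 at 3.22 ± 0.16 led, Wnt7a was at 0.40 ± 0.10, and Axin2, Lgr5 and Lef1 had 0 counts in both libraries, where 3 counts would be 0.112 and 0.120 CPM (counts per library size, in the usual scaling). Human levels are given as CPM only, a unit that does not compare one gene with another.

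**Figure D1:**
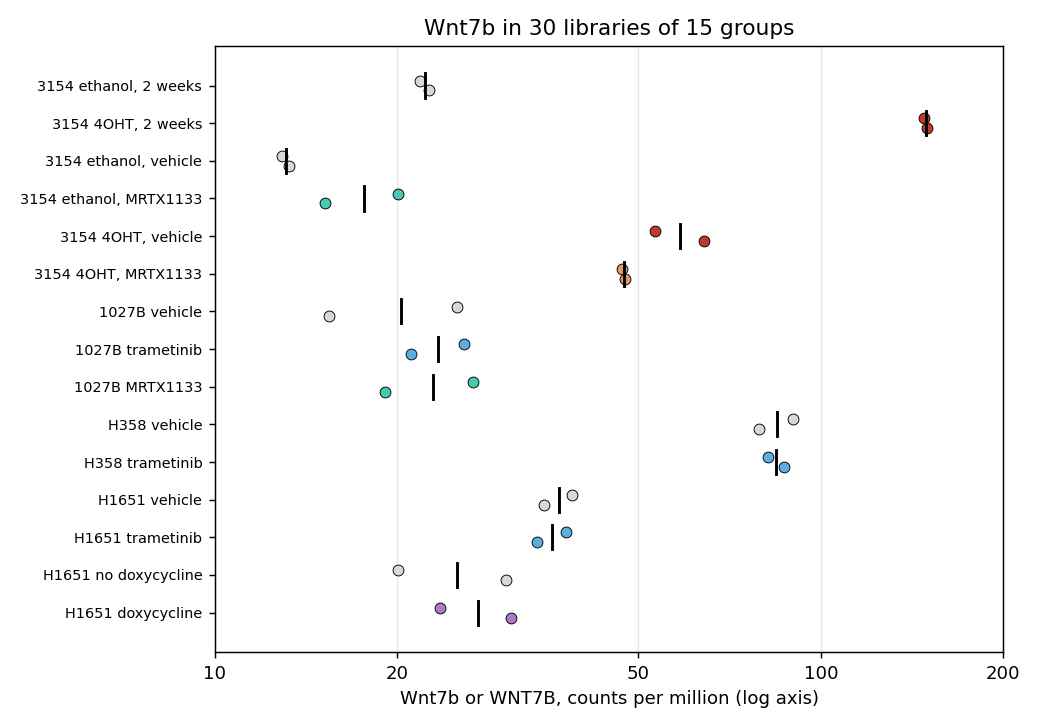
Wnt7b (WNT7B in human lines) in CPM, log axis, for 30 libraries of 15 groups; dots are libraries, vertical bars are group means of 2 libraries. The 2 libraries of 4OHT-treated 3154 organoids at 2 weeks, 148 and 150 CPM, lie above all others, and the trametinib groups lie beside their vehicle groups.

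Loss of Hnf4a in 3154 organoids was accompanied by higher Wnt7b, Wnt4 and Lgr5 in both experiments. At 2 weeks, 3 of the 9 tested members were called, all higher, against 9.81% of 14492 genes called (4.03% higher, 5.78% lower). Among the 3 is Lgr5, which had 1 count in total with ethanol and passed the count filter through the 4OHT libraries alone. In the 48 h experiment with vehicle 5 of 8 were called, 4 higher and 1 lower, against 31% of 15458 genes (15.3% higher, 15.7% lower), and with MRTX1133 in both arms 3 of 8 were called, all higher, against 27.7% (13.2% higher, 14.5% lower). Hnf4a itself, the check of the deletion, fell by 2.61, 2.18 and 2.72 on the log2 scale in the 3 comparisons, with adjusted p = 0.00643, 0.000141 and 7.81e-05, and 27.5 to 60.7 CPM remained on average after 4OHT. The 48 h comparisons share no library with the 2-week comparison, and all come from 1 organoid line.

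Wnt7b encodes a secreted ligand of the lung epithelium. At 2 weeks its level was 21.8 and 22.6 CPM in the ethanol libraries and 148 and 150 CPM in the 4OHT libraries. The groups were far apart, and in GENCODE M21 (GRCm38) the gene lies on the minus strand at chr15:85535437-85582473. The log2 change was 2.75 (SE 0.13, adjusted p = 0.00193 in edgeR), a 6.71-fold higher level. With vehicle in the second experiment it was 12.9 and 13.3 CPM with ethanol and 53.2 and 64.0 CPM with 4OHT, a log2 change of 2.16 (SE 0.17, adjusted p = 0.000282). Under MRTX1133 it was 20.0 and 15.2 CPM with ethanol and 47.0 and 47.5 CPM with 4OHT, a log2 change of 1.42 (SE 0.17, adjusted p = 0.00106). Each of these 3 calls was kept when any 1 library was left out. About 6.62% of the exon bases of Wnt7b lie opposite exons of AU022754 in GENCODE, and whether counting used the strand is not given in the sources used here.

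Wnt4 (plus strand, chr4:137277489-137299726) encodes a ligand best known from kidney and gonad development, and it was low before deletion. At 2 weeks it had 2.74 and 4.18 CPM with ethanol and 17.7 and 11.2 CPM with 4OHT, a log2 change of 2.07 (SE 0.34, adjusted p = 0.0233 in edgeR). Without 4OHT replicate 1 the adjusted p was 0.109. With vehicle in the second experiment it had 0.88 and 0.71 CPM with ethanol and 4.78 and 5.31 CPM with 4OHT, a log2 change of 2.65 (SE 0.25, adjusted p = 0.000476). Under MRTX1133 it had 1.22 and 1.57 CPM with ethanol and 3.00 and 2.84 CPM with 4OHT, a log2 change of 1.06 (SE 0.24, adjusted p = 0.0144), and this call was lost without ethanol replicate 1 or either 4OHT library (adjusted p = 0.0792, 0.0816 and 0.0690). The groups did not overlap in any of the 3 comparisons.

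Wnt7a, the ligand gene with the highest level per length in most organoid groups, was called after deletion in 1 of the 3 comparisons. At 2 weeks its ethanol libraries, 93.8 and 150.0 CPM, enclosed the 4OHT libraries, 111 and 136 CPM, and the log2 change was 0.02 with a 95% interval from -0.59 to 0.62, and from -0.30 to 0.40 with 1 library left out. With vehicle in the second experiment it rose from 56.3 and 60.9 CPM to 98.4 and 102 CPM, a log2 change of 0.77 (SE 0.12, adjusted p = 0.00287 in edgeR). Under MRTX1133 the values were 53.7 and 54.4 CPM with ethanol and 66.3 and 71.7 CPM with 4OHT, a log2 change of 0.35 that was not called (adjusted p = 0.0605). It was called with upper-quartile factors, with at least 10 counts in every library and by DESeq2 (adjusted p = 0.0398, 0.0418 and 0.0336). The difference between the 2 experiments was not tested, since their tables were counted separately.

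The R-spondin receptor genes Lgr4 and Lgr5 lay on opposite sides. Lgr4 had 143.7 and 89.5 CPM with ethanol and vehicle and 55.4 and 59.9 CPM with 4OHT and vehicle, a decrease by 1.02 on the log2 scale (SE 0.23, adjusted p = 0.0124 in edgeR). The 2 ethanol libraries of that comparison differed most among the groups of their table (a chi-square per degree of freedom of 79.5, against 5.40 to 41.8), and without replicate 1 or 2 of them the log2 change was -0.64 (adjusted p = 0.0239) or -1.32 (adjusted p = 0.000779). Without 4OHT replicate 1 or 2 the adjusted p was 0.0915 or 0.0737. At 2 weeks Lgr4 had 63.6 and 34.5 CPM with ethanol and 27.1 and 16.6 CPM with 4OHT, a log2 change of -1.16 (SE 0.36). It was not called (adjusted p = 0.103 in edgeR), while DESeq2 (adjusted p = 0.0109) and the edgeR fit with a replicate block (-1.14, adjusted p = 0.000725) called it. Without ethanol replicate 1 or 2 the log2 change was -0.67 or -1.53. Under MRTX1133 the values were 89.6 and 104.8 CPM against 55.3 and 68.2 CPM, a log2 change of -0.65, also not called (adjusted p = 0.0647), while DESeq2 and an edgeR fit to these 2 groups alone did call it (0.0470 and 0.0217). In all 3 comparisons both 4OHT libraries were below both ethanol libraries.

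Lgr5, a stem cell receptor gene of the intestine and other epithelia, stayed low throughout. At 2 weeks it had 0 and 1 counts with ethanol and 79 and 15 counts with 4OHT, a ratio of depth-adjusted counts of 86.5 with a 95% counting interval from 15.2 to 3453, which covers counting error only. Lgr5 passed the count filter there through the 4OHT libraries alone, so the edgeR result (adjusted p = 0.0453) adds no support beyond the counts. Without 4OHT replicate 1, which held most of the counts, the log2 change was 4.56, against 6.07 with all libraries. In the second experiment it had 1.26 and 0.76 CPM with ethanol and vehicle and 2.43 and 2.59 CPM with 4OHT and vehicle, a log2 change of 1.31 (SE 0.32, adjusted p = 0.0181). That call was lost without ethanol replicate 2 or either 4OHT library (adjusted p = 0.0553, 0.0787 and 0.0971). Under MRTX1133 the values were 1.07 and 0.80 CPM against 3.08 and 4.08 CPM, a log2 change of 1.93 (SE 0.32, adjusted p = 0.00386).

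**Figure D2:**
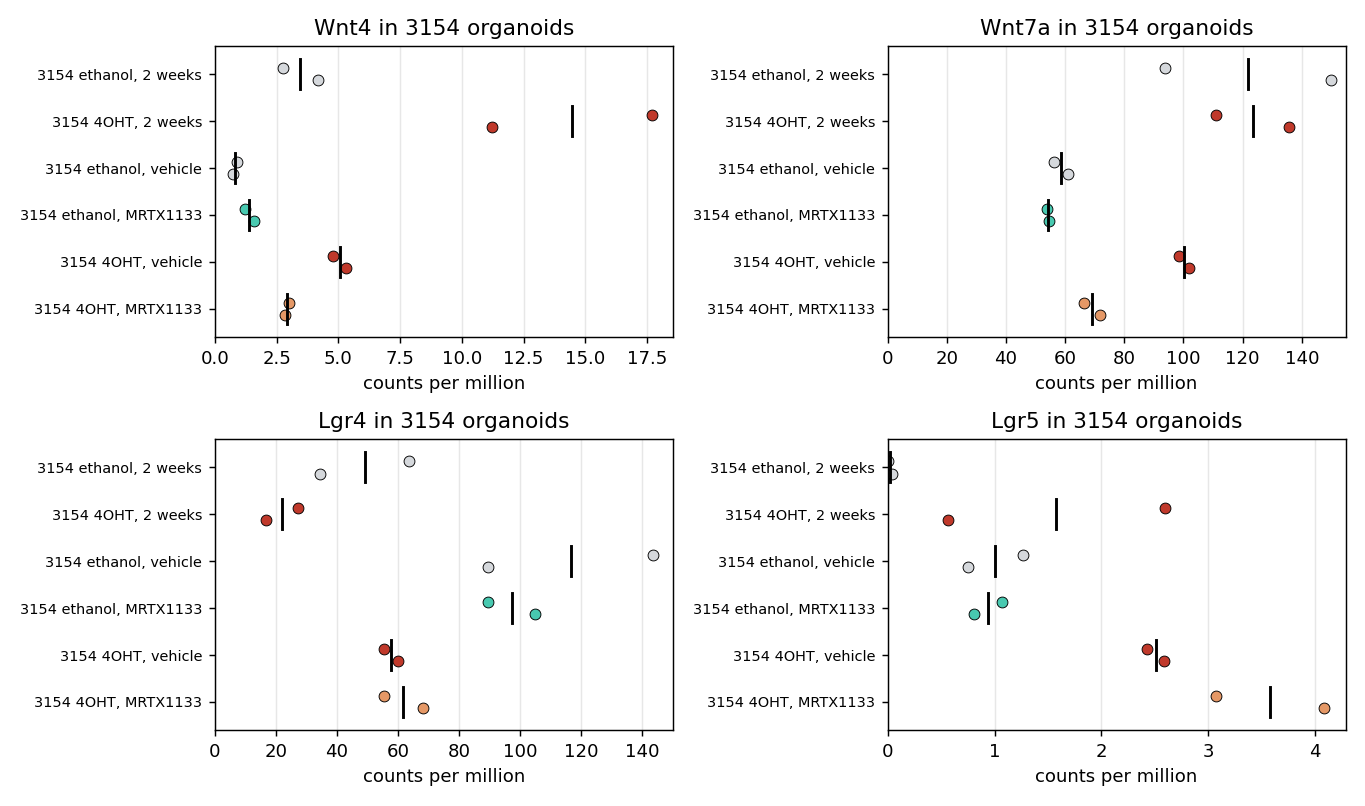
Wnt4, Wnt7a, Lgr4 and Lgr5 in CPM in the 12 libraries of 3154 organoids; dots are libraries, vertical bars are group means of 2 libraries, and the upper pair of rows in each panel is the 2-week experiment. Wnt4 and Lgr5 are higher and Lgr4 lower with 4OHT in each pair of groups, while the Wnt7a groups overlap at 2 weeks.

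Apart from Lgr5, the feedback genes tested (Axin2, Nkd1, Rnf43 and Znrf3) were not called after deletion by edgeR with all libraries and no replicate block. Axin2 had 30 and 2 counts with ethanol at 2 weeks and 96 and 11 counts with 4OHT, groups that overlap, and a log2 change of 1.65 with a 95% interval from -1.22 to 4.53. In the second experiment Axin2 had 15.5 and 9.02 CPM with ethanol and 8.46 and 9.60 CPM with 4OHT under vehicle (log2 change -0.44, adjusted p = 0.218 in edgeR). Under MRTX1133 it had 7.35 and 6.79 CPM with ethanol and 9.26 and 10.8 CPM with 4OHT (log2 change 0.50, adjusted p = 0.178). Nkd1, an inhibitor that binds Dishevelled, had 28 and 37 counts with ethanol and 1 and 7 with 4OHT at 2 weeks, a log2 change of -3.13 (SE 0.80) just outside the threshold (adjusted p = 0.0657). DESeq2 called Nkd1 (adjusted p = 0.0340), and without ethanol replicate 1 its log2 change was -3.52. The edgeR fit with a replicate block called Nkd1 (-3.22, adjusted p = 0.00855) and Axin2 (1.76, adjusted p = 0.0223) at 2 weeks, and 4563 of all 14492 genes. In the second experiment Nkd1 had at most 7 counts in any library and was not tested. Rnf43 and Znrf3 were not called in any of the 3 comparisons: their log2 changes lay between -0.54 and 0.40, and at 2 weeks the 95% intervals ran from -0.81 to 0.94 for Rnf43 and from -0.44 to 1.24 for Znrf3. With the ethanol and vehicle libraries left out in turn, Axin2 (-0.79, adjusted p = 0.0111) and Rnf43 (-0.93, adjusted p = 0.0118) were called lower without replicate 2, and Znrf3 (0.68, adjusted p = 0.0234) higher without replicate 1, so these 3 calls turn on a single library.

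Other genes of the pathway were grouped in 5 lists. At 2 weeks 2 of 6 tested genes for ligands and their export were called, both higher, as were 4 of 15 receptor genes, 1 of 4 genes for secreted or membrane inhibitors, and 3 of 20 genes for proteins of the cytoplasm and nucleus (2 higher, 1 lower), with 0 of 8 other textbook targets. Over all genes tested there 9.81% were called. The list medians of the log2 change were 1.27, 0.15, -0.11, -0.05 and 0.41 in that order, against 0.02 over all genes tested. Among the called genes, Wnt10a averaged 0.039 CPM with ethanol and 2.56 CPM with 4OHT (adjusted p = 0.0074 in edgeR). Wnt5b rose from 0.289 to 1.93 CPM (log2 change 2.73). Lgr6, another R-spondin receptor gene, rose from 1.49 to 5.42 CPM (1.88), and the Frizzled genes Fzd6 and Fzd1 rose by 1.26 and 1.24. Tcf7, a nuclear partner of beta-catenin, rose by 1.81, Tle4, a co-repressor, rose from 40.2 to 84.1 CPM, and Tcf7l1 fell by 0.89. The called inhibitor was Apcdd1, at 0.055 CPM on average with ethanol and 0.84 CPM with 4OHT.

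In the 48 h experiment with vehicle the calls were 1 of 4 ligand and export genes, 5 of 14 receptors, 1 of 3 inhibitors, 8 of 20 cytoplasmic and nuclear genes (5 higher, 3 lower) and 5 of 9 other targets. Over all genes tested the share was 31%. All 5 called receptors were higher, among them Lgr6 (0.21 to 0.89 CPM), Fzd1 (10.9 to 34.6 CPM, log2 change 1.67) and Fzd8 (2.33 to 5.48 CPM, 1.23). Of the other targets, 4 were higher and 1 lower: Ccnd1, which encodes cyclin D1, rose from 264 to 657 CPM (1.31), Myc from 31.8 to 59.8 CPM (0.91), and Tnfrsf19 averaged 0.063 CPM before and 0.54 CPM after. The inhibitor gene Wif1 fell by 1.88, and Tle4 rose by 1.33. Under MRTX1133, 3 of 4 ligand and export genes, 6 of 14 receptors (4 higher, 2 lower), 0 of 3 inhibitors, 5 of 20 cytoplasmic and nuclear genes (3 higher, 2 lower) and 2 of 9 other targets were called, against 27.7% of all genes. Wnt9a rose from 0.117 to 0.698 CPM (2.51) and Wnt5b from 0.213 to 0.942 CPM (2.11). Porcn, the acyltransferase that lipidates WNT proteins, rose from 308 to 735 CPM (1.26, adjusted p = 0.00267 in edgeR). Lgr6 averaged 0.059 CPM with ethanol and 1.08 CPM with 4OHT, Fzd4 fell by 1.46, and Fzd2 rose by 1.09. Tle2 and Tle4 rose by 1.01 and 0.89, Tcf7l1 fell by 0.83, and Ccnd1 and Cd44 rose by 0.63 and 0.60.

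Markers of other cell types were measured in the same libraries. Summed over the alveolar type 1 list, the level was 1511 and 1648 CPM with ethanol and 1791 and 1991 CPM with 4OHT at 2 weeks, with 2 of 6 tested markers called higher. In the 48 h experiment it was 1311 to 1345 against 2014 to 2112 CPM with vehicle (4 of 5 called higher) and 1857 to 2041 against 3300 to 3638 CPM under MRTX1133 (5 of 5). The alveolar type 2 sum overlapped between the groups at 2 weeks (8105 to 10959 against 8318 to 10609 CPM, 0 of 5 called) and with vehicle at 48 h (6454 to 8723 against 7932 to 9122 CPM), where Abca3 and Sftpb were called higher. The leukocyte sum, from 4 of 6 markers, was 18.6 to 44.7 CPM with ethanol and 10.1 to 13.5 CPM with 4OHT at 2 weeks, with Csf1r called lower of 2 tested. The endothelial sum, from 3 of 5 markers, was 5.08 to 5.93 CPM with ethanol, with Tek at 0 counts, and 2.17 to 2.55 CPM with 4OHT at 2 weeks, and Pecam1, the 1 marker tested, was called lower. The sum of 2 of 7 fibroblast markers was at most 0.85 CPM at 2 weeks. Under MRTX1133 Col1a1, the 1 fibroblast marker tested, was called higher (0.115 to 0.121 CPM with ethanol, 0.426 to 0.473 CPM with 4OHT). Their part in the WNT results was not tested. Fewer cells of a type and less RNA per cell cannot be told apart in such bulk samples.

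The reverse manipulation was made in H1651, and no member was called without a replicate block. Doxycycline raised HNF4A from 47.1 and 35.9 CPM to 94.4 and 96.8 CPM, a 2.30-fold higher level (adjusted p = 0.00979 in edgeR). Of 9 tested members 0 were called, against 1.42% of 17351 genes (1.04% higher, 0.386% lower). DESeq2 also called 0, and 2 members had an unadjusted p under 0.05. WNT7B had 20.0 and 30.2 CPM without and 23.5 and 30.8 CPM with doxycycline, a log2 change of 0.11 with a 95% interval from -0.39 to 0.60. WNT4 had 2.47 and 2.06 CPM without and 1.85 and 1.06 CPM with doxycycline (log2 change -0.63, adjusted p = 0.511). The 2 members with an unadjusted p under 0.05 were LEF1, with 7 and 10 counts against 24 and 54 (log2 change 2.28, adjusted p = 0.132), and NKD1, with 43 and 39 counts against 71 and 80 (0.95, adjusted p = 0.167). Without doxycycline replicate 1 the log2 change of LEF1 was 2.81. With the replicate number as a block, edgeR called LEF1 (2.26, adjusted p = 1.4e-05) and NKD1 (0.95, adjusted p = 0.00247), and 3048 of all 17351 genes. For LGR4, the member with the most counts here, the interval was narrow: 316 and 285 CPM without, 310 and 282 CPM with doxycycline, and a log2 change of -0.02 with an interval from -0.22 to 0.18. WNT7A had no row among the counts of this experiment. On the 5 pathway lists 2 genes were called, TNFRSF19 lower (-0.78) and CCND1 higher (0.42). The summed fibroblast markers were 663 and 757 CPM without and 413 and 455 CPM with doxycycline, with COL3A1 called lower of 6 tested. The epithelial sum was 4420 to 4422 CPM without and 5716 to 6204 CPM with doxycycline, with KRT8 and KRT18 called higher of 5 tested. DUSP6, the MAPK target, averaged 53.1 CPM without and 77.3 CPM with doxycycline and was called higher. Their part in these results was not tested.

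**Figure D3:**
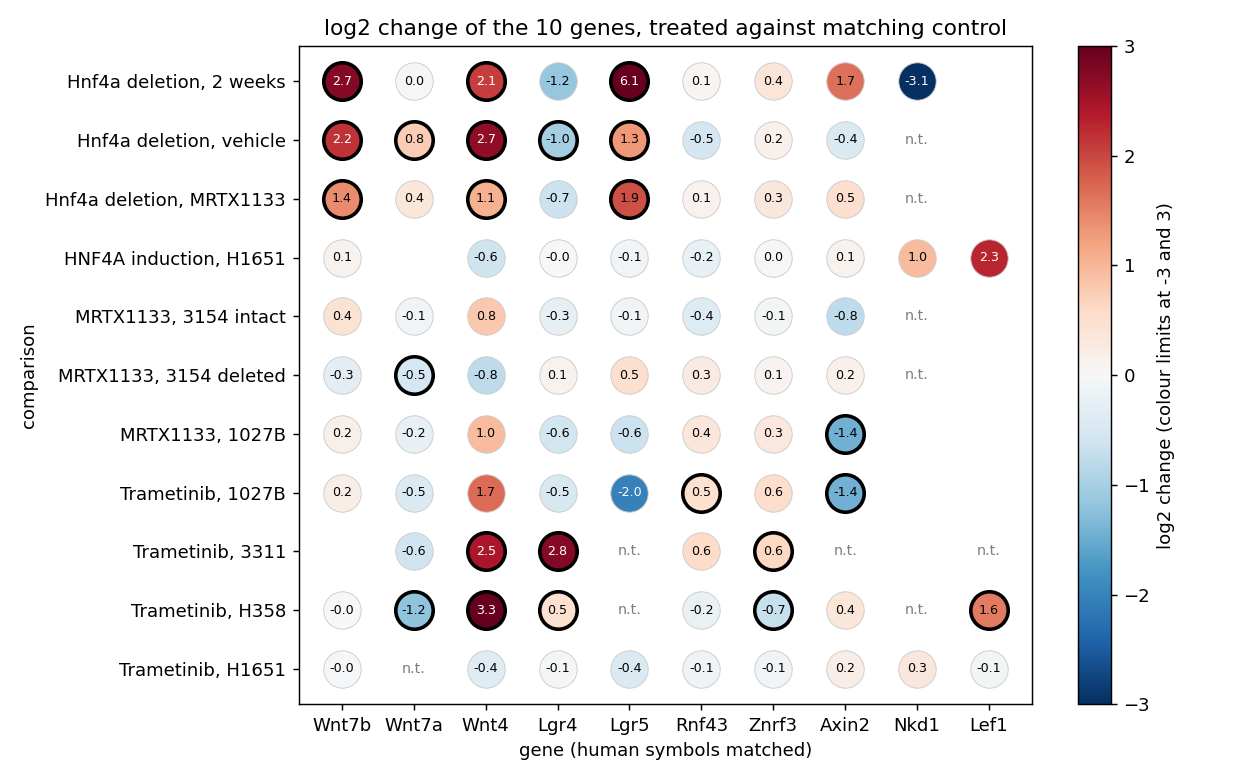
log2 change of each gene (columns, mouse and human symbols matched) in the 11 comparisons with a matching control (rows), in edgeR. Black outlines mark adjusted p under 0.05, n.t. marks genes under the count filter, and blanks mark genes with no row in that table. Outlined circles for Wnt7b stand in the 3 deletion comparisons and nowhere else, and Wnt4 is outlined in those and in 2 trametinib comparisons.

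MRTX1133 in 3154 organoids gave 1 call among the members over both arms. With Hnf4a intact, 0 of 8 were called by edgeR and 0 by DESeq2, and 3 had an unadjusted p under 0.05, against 0.349% of genes called (0.317% higher, 0.0323% lower). After deletion 1 of 8 was called, against 4.64% (2.1% higher, 2.54% lower). That was Wnt7a, at 98.4 and 102 CPM with vehicle and 66.3 and 71.7 CPM with MRTX1133, a decrease by 0.54 (SE 0.12, adjusted p = 0.046). It lost the call whichever of the 4 libraries was left out (adjusted p = 0.191 to 0.395). Dusp6, a target of the MAPK pathway used as a check of the drug, did not pass in either arm (log2 change -0.09 intact, adjusted p = 0.933, and -0.60 deleted, adjusted p = 0.198), and the Dusp6 libraries overlapped with Hnf4a intact. Hnf4a itself was called lower with the drug in the deleted arm (49.9 to 27.5 CPM on average, adjusted p = 0.0185) and not in the intact arm (225 to 182 CPM, adjusted p = 0.378).

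Between the 2 arms of the MRTX1133 treatment the estimates for Wnt7b and Wnt4 had opposite signs, and none of them was called. For Wnt7b the log2 change was 0.43 with Hnf4a intact (95% interval 0.03 to 0.82, adjusted p = 0.383 in edgeR), and after deletion it was -0.31 (interval -0.69 to 0.07, adjusted p = 0.334). For Wnt4 it was 0.80 (adjusted p = 0.312) and -0.79 (adjusted p = 0.0898, and 0.0143 in a fit to these 2 groups alone). The interaction term, which tests this difference itself, was -0.74 for Wnt7b (unadjusted p = 0.0144, adjusted p = 0.572), -1.59 for Wnt4 (0.00192 and 0.541), -0.42 for Wnt7a (0.0363 and 0.622) and 0.94 for Axin2 (0.0298 and 0.615). It passed for 0 of 15458 genes, 0% of those tested, while 7.44% had an unadjusted p under 0.05 and DESeq2 called 36 genes, none of them a member. Axin2 had 15.5 and 9.02 CPM with vehicle and 7.35 and 6.79 CPM with MRTX1133 with Hnf4a intact, a log2 change of -0.79 (adjusted p = 0.282), which was called without vehicle replicate 2 (-1.13, adjusted p = 0.0317). After deletion the Axin2 libraries overlapped. On the pathway lists 2 receptor genes were called with Hnf4a intact, Fzd8 (1.56) and Fzd1 (1.09). After deletion Wls, the WNT export carrier, rose by 0.57, Fzd2 rose by 0.84, and Tcf7 fell by 0.85. The alveolar type 1 marker sum was 1311 to 1345 CPM with vehicle and 1857 to 2041 CPM with MRTX1133 with Hnf4a intact, and 2014 to 2112 against 3300 to 3638 CPM after deletion, with 3 of 5 tested markers called higher in each arm. The alveolar type 2 sum was 6454 to 8723 against 10713 to 13550 CPM with Hnf4a intact (0 of 5 called, median log2 change 0.23), and 7932 to 9122 against 12514 to 16753 CPM after deletion. There Sftpc was called higher (1.73) and Sftpb lower (-0.76), and the median over the 5 markers was -0.44, below 0 although the sum was higher. Their part in the WNT results was not tested.

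In 1027B organoids Axin2 fell with both inhibitors. It had 17.0 and 9.75 CPM with vehicle, 4.59 and 5.22 CPM with trametinib and 4.50 and 5.43 CPM with MRTX1133. The log2 changes were -1.45 (SE 0.30, adjusted p = 0.015 in edgeR) and -1.43 (SE 0.30, adjusted p = 0.0415), and no treated library reached either vehicle library. With the replicate number as a block, which treats same-numbered libraries as pairs, the adjusted p in edgeR was 0.00345 and 0.00771. The vehicle libraries were far from each other, and without vehicle replicate 1 the log2 changes were -0.99 (adjusted p = 0.0552) and -0.98 (adjusted p = 0.140). The trametinib call was also lost without trametinib replicate 1 (0.0926), and the MRTX1133 call without MRTX1133 replicate 1 or 2 (0.199 and 0.120) and in a fit to only the 2 groups compared (0.0674). About 3.80% of Axin2 exon bases lie opposite Gm11670.

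With trametinib 2 of the 8 tested members of 1027B were called, against 26.7% of 14555 genes (13.5% higher, 13.2% lower). The other was Rnf43, higher: 34.9 and 30.6 CPM with vehicle, 44.0 and 46.8 CPM with trametinib, a log2 change of 0.47 (SE 0.12, adjusted p = 0.0271 in edgeR). It was not called without vehicle replicate 2, trametinib replicate 1 or trametinib replicate 2 (adjusted p = 0.112, 0.0953 and 0.111). With the block 7 of 8 were called, and so were 6540 of all 14555 genes tested. Lgr5 and Znrf3 were also called by DESeq2 (adjusted p = 0.0324 and 0.0337), and Znrf3 with upper-quartile factors (0.0480). Lgr5 had 5.81 and 2.65 CPM with vehicle and 1.51 and 0.56 CPM with trametinib (log2 change -2.02, adjusted p = 0.0948; blocked -2.08, 0.00137). Wnt7a had 94.1 and 106 CPM against 57.7 and 87.7 CPM (-0.46, adjusted p = 0.132; blocked -0.48, 0.00804). Znrf3 had 13.0 and 14.2 CPM against 22.7 and 17.4 CPM (0.56, adjusted p = 0.0563; blocked 0.55, 0.0164).

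Wnt4 had 0.68 and 0.65 CPM with vehicle and 3.29 and 1.03 CPM with trametinib (log2 change 1.70, adjusted p = 0.0778 in edgeR, and 0.0304 in the blocked fit). Lgr4 had 103.6 and 75.2 CPM against 57.4 and 69.6 CPM (-0.49, adjusted p = 0.0886, and 0.0379 blocked). Wnt7b did not pass in either fit: 25.1 and 15.4 CPM with vehicle, 25.7 and 21.0 CPM with trametinib, a log2 change of 0.20 with a 95% interval from -0.44 to 0.84. Without one library 4 members crossed the threshold: Lgr4 without vehicle replicate 2 (adjusted p = 0.0491), and Wnt7a, Wnt4 and Znrf3 without trametinib replicate 2 (0.0244, 0.0209 and 0.0446). Without trametinib replicate 1 the log2 change of Wnt4 was 0.62 (adjusted p = 0.498), that of Wnt7a -0.19 (0.488) and that of Znrf3 0.36 (0.295), and without vehicle replicate 1 that of Lgr4 was -0.25 (0.376).

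MRTX1133 called only Axin2 of the 8 members in 1027B, against 6.27% of genes (3.01% higher, 3.26% lower). The blocked fit, which called 3515 of all 14555 genes, added Lgr4, at 55.3 and 64.8 CPM with the drug (log2 change -0.58, adjusted p = 0.0359; 0.121 without the block), and Rnf43, at 42.6 and 41.7 CPM (blocked log2 change 0.37, adjusted p = 0.0315; 0.124 without the block). Wnt7b had 26.7 and 19.1 CPM with MRTX1133, a log2 change of 0.17 with a 95% interval from -0.47 to 0.82. The direct comparison of MRTX1133 at 20 nM with trametinib at 10 nM called 0 of 14555 genes (0%) in edgeR. An unadjusted p under 0.05 was found for 16.2% of genes and 0 members, DESeq2 called 712 genes, and the blocked fit called 2050, among them Lgr5, higher with MRTX1133 by 1.31 (adjusted p = 0.0384). Without the block that Lgr5 difference ran from 0.077 (without MRTX1133 replicate 1) to 2.27 (without trametinib replicate 1) and was not called. For Axin2 the difference between the drugs was 0.01 with an interval from -0.71 to 0.74, and for Wnt7b it was -0.03 with an interval from -0.67 to 0.61. The 2 comparisons with vehicle share their vehicle libraries.

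On the lists in 1027B, trametinib called 3 of 4 ligand and export genes, all higher, 10 of 14 receptors (6 higher, 4 lower), 0 of 3 inhibitors, 9 of 21 cytoplasmic and nuclear genes (8 higher, 1 lower) and 2 of 8 other targets, both lower, against 26.7% of all genes. MRTX1133 called 1 of 4, 7 of 14 (4 higher, 3 lower), 0 of 3, 0 of 21 and 1 of 8 in the same order, against 6.27%. Fzd8 averaged 2.34 CPM with vehicle, 19.2 CPM after trametinib (higher by 3.05, adjusted p = 0.00377 in edgeR) and 12.7 CPM with MRTX1133 (2.45, adjusted p = 0.0224), and Fzd2 rose by 2.08 and 1.57. Lgr6 fell from 20.2 to 4.99 CPM with trametinib (-2.02), and Fzd4 fell from 168 to 65.3 CPM with MRTX1133. Wls rose from 114 to 361 and 271 CPM (1.66 and 1.24), and Wnt9a (0.205 to 2.22 CPM) and Wnt5a (10.0 to 19.3 CPM) rose with trametinib. Apc2, Tle2 and Ctnnbip1 rose with trametinib by 1.75, 1.54 and 0.96. Of the other targets, Sox9 fell with both drugs (94.0 CPM with vehicle, 24.7 CPM with trametinib, 42.5 CPM with MRTX1133) and Myc with trametinib (-0.88). The list medians with trametinib were 1.30 for ligands and export, 0.42 for receptors, 0.25 for inhibitors, 0.18 for cytoplasm and nucleus and -0.25 for other targets, against -0.01 over all genes. The MAPK target Dusp6 averaged 271 CPM with vehicle, 39.0 CPM with trametinib and 118 CPM with MRTX1133 (adjusted p = 0.00083 and 0.0248), and Hnf4a fell by 1.01 and 0.76 (adjusted p = 0.00535 and 0.0375). The alveolar type 2 marker sum was 6589 to 10586 CPM with vehicle, 2230 to 2760 CPM with trametinib and 3021 to 4665 CPM with MRTX1133. Of 5 type 2 markers tested, 3 were called lower and 1 higher with trametinib, and 1 lower and 1 higher with MRTX1133, the higher one being Sftpc in both. The alveolar type 1 sum was 1204 to 1309 CPM with vehicle, 1678 to 2378 CPM with trametinib (3 of 6 called higher, 1 lower, median log2 change 1.25) and 1192 to 1600 CPM with MRTX1133 (1 higher, 1 lower). The epithelial sum was 9027 to 9170 CPM with vehicle, 7418 to 8260 CPM with trametinib (Cdh1 called higher, Krt19 lower) and 7992 to 8126 CPM with MRTX1133 (0 of 5 called). The leukocyte sum was 7.85 to 8.28, 6.62 to 7.26 and 5.43 to 5.53 CPM in that order, with Csf1r called higher and Ptprc lower with trametinib. The sum of 2 fibroblast markers was 0.53 to 0.92, 1.03 to 1.69 and 1.11 to 1.69 CPM, with no call. Their part in these results was not tested.

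In the 3311 line trametinib raised Lgr4. Its level was 18.3 and 19.6 CPM with vehicle and 104.7 and 151.6 CPM with trametinib, a log2 change of 2.76 (SE 0.21, adjusted p = 0.000427 in edgeR). Wnt4 rose from 0.67 and 0.56 CPM to 4.01 and 2.78 CPM (2.46, SE 0.42, adjusted p = 0.00512). Znrf3 rose from 11.8 and 11.5 CPM to 19.4 and 16.4 CPM (0.62, SE 0.20, adjusted p = 0.043), and lost the call whichever library was left out (adjusted p = 0.0599 to 0.333). These were the 3 called of 5 tested, against 39% of 15224 genes (19.4% higher, 19.6% lower).

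Rnf43 in 3311 had 23.1 and 29.6 CPM with vehicle and 44.6 and 33.4 CPM with trametinib (log2 change 0.57, adjusted p = 0.0629 in edgeR), and it was called without vehicle replicate 2 or trametinib replicate 2 (0.0408 and 0.0301). Wnt7a was low, 1.49 and 1.04 CPM against 1.00 and 0.65 CPM (-0.61, adjusted p = 0.331). Axin2 had 0 and 0 counts with vehicle and 1 and 1 with trametinib, Lgr5 had 0 and 0 against 0 and 1, and Lef1 had 0 and 0 against 5 and 3, all under the filter. Wnt7b and Nkd1 had no row among the counts of this line, so they could not be tested.

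On the lists in 3311, where 39% of all genes were called (19.4% higher, 19.6% lower), 4 of 5 ligand and export genes were called, all higher. Wnt5a rose from 34.7 to 129 CPM (1.90, adjusted p = 0.000431 in edgeR), Wnt16 rose from 2.08 to 5.51 CPM (1.40), and Wnt2b had 0 CPM before and 0.73 CPM after. Of 14 receptors 5 were higher and 3 lower, with Fzd8, Fzd2 and Fzd6 at log2 changes of 4.03, 2.71 and 2.32. Of 6 inhibitor genes 3 were higher, Frzb (1.78), Kremen1 (1.73) and Apcdd1 (1.62). Of 21 cytoplasmic and nuclear genes 7 were higher and 4 lower, with Tle4 (3.12) and Tle3 (1.89) higher and Tcf7 (-2.69) lower, and of 6 other targets 2 were higher and 2 lower, with Ephb3 at 2.20, Cd44 at -2.02 and Sox9 at -3.55. The medians were 1.40, 0.34, 1.23, 0.05 and -0.41 in list order, against 0.01 over all genes. Dusp6 fell by 1.87 (adjusted p = 0.00133). The alveolar type 2 sum was 4465 to 5204 CPM with vehicle and 598 to 695 CPM with trametinib, with Sftpb called lower of 2 tested. The alveolar type 1 sum was 67.2 to 71.6 against 140 to 303 CPM, with 2 of 5 called higher and 1 lower. The sum of 3 leukocyte markers, with Ptprc at 0 counts throughout, was 9.55 to 15.7 against 21.8 to 28.6 CPM, and its 2 tested markers were called in opposite directions, Csf1r higher (1.55) and Cd68 lower (-1.84). Of 3 fibroblast markers tested 1 was called higher and 1 lower. Their part was not tested.

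In H358, where HNF4A had 0 counts in all 4 libraries, the WNT7B groups overlapped and 5 other members were called. WNT7B had 89.9 and 79.2 CPM with vehicle and 81.7 and 87.1 CPM with trametinib, a log2 change of -0.00 with a 95% interval from -0.26 to 0.25. The 5 were of 8 tested, 3 higher and 2 lower, against 46.8% of 18972 genes (23.5% higher, 23.2% lower). DUSP6, the check of the drug, fell by 7.59 (adjusted p = 1.4e-06 in edgeR).

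WNT4 had 3 and 3 counts with vehicle and 36 and 24 with trametinib, a ratio of depth-adjusted counts of 10.0 with a 95% counting interval from 4.34 to 28.4, again for counting error only (adjusted p = 0.000798 in edgeR). It passed the count filter through the trametinib libraries alone, so its place among the called members adds no support beyond the counts. LEF1, a nuclear partner of beta-catenin, had 11 and 4 counts against 28 and 16 (log2 change 1.55, SE 0.47, adjusted p = 0.0256), with DESeq2 at 0.155, and was not called without vehicle replicate 2 or trametinib replicate 1 (0.190 and 0.0827). LGR4 rose from 50.8 and 49.8 CPM to 70.0 and 70.6 CPM (0.48, SE 0.10, adjusted p = 0.00574). WNT7A fell from 3.42 and 1.73 CPM to 0.92 and 1.37 CPM (-1.21, SE 0.39, adjusted p = 0.0328), and was not called without vehicle replicate 1 or trametinib replicate 1 (0.231 and 0.0837). ZNRF3 fell from 34.4 and 38.6 CPM to 20.5 and 24.8 CPM (-0.69, SE 0.14, adjusted p = 0.00482).

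AXIN2 and RNF43 in H358 were not called: AXIN2 had 2.36 and 2.48 CPM against 3.29 and 2.91 CPM (0.36, adjusted p = 0.224 in edgeR), and RNF43 14.0 and 13.5 CPM against 13.4 and 10.4 CPM (-0.20, adjusted p = 0.342). LGR5 had at most 2 counts. NKD1 had 0 counts in all 4 libraries, where 3 counts would be 0.064 to 0.118 CPM. LGR4-AS1, an antisense gene of LGR4, is listed in the human tables, and without stated use of the strand reads from the pair cannot be told apart.

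In H358, where 46.8% of all genes were called (23.5% higher, 23.2% lower), 7 of 11 tested ligand and export genes were higher and 1 lower. WNT3A, a canonical ligand, rose from 0.28 to 2.83 CPM (3.34, adjusted p = 0.000135 in edgeR), WNT10A rose from 0.64 to 3.46 CPM (2.41), and WNT8B fell from 0.94 to 0.073 CPM (-3.46). Receptors split into 4 higher and 4 lower of 16, with FZD1 at 0.98, LGR6 lower (1.85 to 0.92 CPM) and LRP5, a co-receptor, at -1.29. Of 6 inhibitor genes NOTUM, which removes the lipid from WNT proteins, was higher (2.61), and KREMEN2 (-1.88) and DKK1 (-0.67) were lower. Of 22 cytoplasmic and nuclear genes 7 were higher and 6 lower, with the co-repressor genes TLE4, TLE2 and TLE1 at 1.76, 1.76 and 1.45. Other targets had 1 higher and 4 lower of 8, with NKD2 at -3.46, MYC at -1.44 and CD44 at -1.05. The medians were 1.61, -0.03, -0.40, 0.07 and -0.68 in list order, against 0.02 over all genes. The summed fibroblast markers, with COL1A2 and DCN at 0 counts with vehicle, were 41.2 to 50.0 CPM before and 246 to 348 CPM after trametinib, with 4 of 6 called higher. The epithelial sum was 5337 to 5534 against 3601 to 3882 CPM, with 3 of 5 markers called lower and 1 higher, and the alveolar type 1 sum was 427 to 435 against 769 to 811 CPM, with 2 of 4 called higher and 1 lower. The alveolar type 2 sum was 8.31 to 8.48 against 21.2 to 27.6 CPM, with both tested markers called higher. The endothelial sum was 12.1 to 14.4 against 21.1 to 21.2 CPM, with CDH5 called higher of 4 tested, and the leukocyte sum was 1.55 to 1.79 against 1.73 to 2.32 CPM, with PTPRC called higher of 3. Their part in these results was not tested.

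In H1651 the same dose of trametinib called 0 of 18277 genes (0% in total, 0% higher and 0% lower) in edgeR, with 3.27% at an unadjusted p under 0.05, and DESeq2 called 47 genes, none of them a member. DUSP6 had 49.8 and 51.8 CPM with vehicle and 5.27 and 7.46 CPM with trametinib, with a 95% interval of the log2 change from -3.48 to -2.51, and did not pass after adjustment (0.149). WNT7B had 38.9 and 35.0 CPM with vehicle and 38.0 and 34.0 CPM with trametinib, a log2 change of -0.04 with a 95% interval from -0.32 to 0.25. The replicates of a number resembled each other more than their treatment for several members. LGR4 had 337.5 and 205.6 CPM with vehicle and 310.7 and 213.7 CPM with trametinib (-0.05, interval -0.80 to 0.70), and RNF43 had 8.54 and 3.45 CPM against 7.28 and 3.79 CPM (log2 change -0.12). WNT4 (4.60 and 1.84 CPM against 3.53 and 1.49 CPM) followed the same order. No member had an unadjusted p under 0.05, and WNT7A had at most 1 count.

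The log2 changes with trametinib are given side by side for the 4 lines, which received 10 nM to 50 nM. For Lgr4 they were 2.76 in 3311 and 0.48 in H358, both called, and -0.49 in 1027B and -0.05 in H1651, not called. For Znrf3 they were 0.62 in 3311 and -0.69 in H358, both called, and 0.56 in 1027B and -0.10 in H1651, not called. Rnf43 was called in 1027B (0.47) and not in 3311, H358 or H1651 (0.57, -0.20 and -0.12). Wnt4 was called in 3311 (2.46) and H358 (3.29) and not in 1027B or H1651 (1.70 and -0.37). In the blocked fit of 1027B, Lgr4, Znrf3 and Wnt4 were called too (adjusted p = 0.0379, 0.0164 and 0.0304). In H1651 leaving out 1 library changed the sign of all 4 genes. Wnt7b, where measured, stayed within intervals that include 0 in all 3 lines. Differences between lines were not tested, because their tables were counted separately and dose and line change together.

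**Figure D4:**
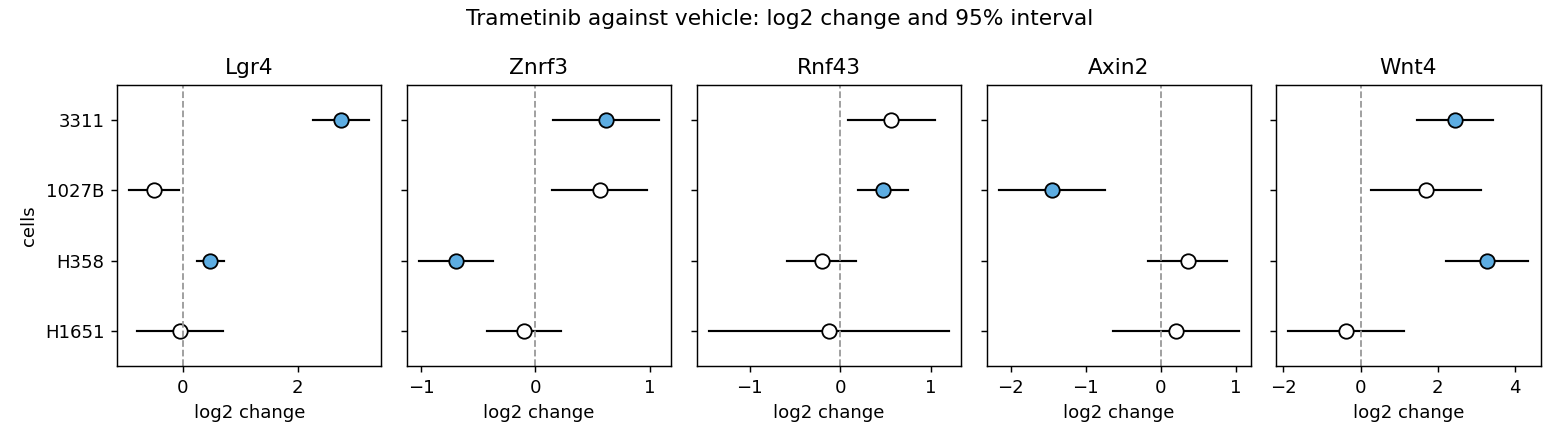
log2 change with trametinib against vehicle (dots) and its 95% interval (lines) for 5 genes in 4 lines, from edgeR; filled dots have an adjusted p under 0.05, the dashed line is no change, and Axin2 was not tested in 3311. Lgr4 lies at 2.76 in 3311 and at -0.49 in 1027B, and Znrf3 lies above 0 in both mouse lines and below 0 in H358.

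Over the 18 mouse libraries in which Wnt7b was tested, each gene's log2 CPM was centred within its table and correlated with Wnt7b. Of 10520 genes with a mean of at least 5 CPM, the 5 most alike were Serinc2 (Pearson r = 0.97), Stim2 (0.97), Cpne2 (0.97), Loxl4 (0.96) and Ankrd1 (0.96). Loxl4 reached that mean through 1027B (26.7 to 53.0 CPM). In 3154 it had 0 CPM in both 2-week ethanol libraries, at most 0.084 CPM in the 48 h ethanol libraries and 0.91 to 1.25 CPM in the 48 h 4OHT libraries. Cpne2 had 0.17 to 3.17 CPM in the 48 h experiment. Serinc2 belongs to a family of serine incorporators, Stim2 is a calcium sensor of the endoplasmic reticulum, Loxl4 is a lysyl oxidase, and Ankrd1 is a widely used target of YAP and TAZ. These points share libraries and the same deletion contrast, and r is a description. In the 12 human libraries the r values of the same 5 genes with WNT7B ran from -0.28 to 0.26. Among the members, r with Wnt7b over the mouse libraries was 0.45 for Znrf3, 0.40 for Wnt7a, 0.28 for Axin2, -0.05 for Rnf43 and -0.80 for Lgr4. Wnt4 and Lgr5 averaged under 5 CPM and were left out of this correlation. Nkd1 and Lef1 were not tested in all of these experiments and were left out too.

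Across the series the libraries held 19692517 to 45284286 counts. All 5 epithelial markers were detected in every group, with sums from 3601 to 10911 CPM, and the alveolar type 2 sum was 8.31 to 95.98 CPM in the human lines against 598 CPM or more in the mouse lines. Endothelial sums were at most 21.2 CPM and leukocyte sums at most 44.7 CPM. Fibroblast sums were 413 to 757 CPM in H1651, 41.2 to 348 CPM in H358 and at most 26.2 CPM in the mouse lines. No pair of replicates agreed within counting noise, the lowest chi-square per degree of freedom being 5.40.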

How the data were processed

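Poly(A) RNA was sequenced from 34 libraries of 17 groups of 2. The authors deposited raw gene counts in 7 tables. Per the submitters' processing notes, cutadapt 3.5, STAR 2.7.6a and featureCounts 1.6.3 were used, with hg38, mm10 and mm39 named; which mouse build belongs to which table, and whether counting used the strand, are not given in the sources used here. Libraries held 19692517 to 45284286 counts, and every group has 2 libraries; both the counts of low genes and this number limit the precision.

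Each table was fitted on its own over all its genes with edgeR 4.0.16 (R 4.3.3): filterByExpr, TMM factors, quasi-likelihood test, Benjamini-Hochberg adjustment over all genes tested, called at an adjusted p of 0.05. All groups of a table shared 1 estimate of the spread. CPM uses TMM library sizes, and RPKM divides it by the GENCODE M21 exon length. The 2-sided tests were tested on simulated data. Counting intervals are exact at 95% and cover counting error only, and a floor is 3 counts. Alternatives were DESeq2 1.42.0, upper-quartile factors, no filter, a minimum of 10 counts in every library, a blocked fit on the replicate number, a fit to the compared groups alone, and leaving out each library.

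All 10 members are described. From each pathway list up to 3 called genes with the largest change may be named per comparison, and so are the 5 genes most like Wnt7b by Pearson r. That likeness covers 3 mouse tables, because Wnt7b had no row in that of 3311. In 1027B same-numbered libraries deviated together (correlations of their deviations 0.243, 0.372 and 0.414), and the blocked fit is given there beside the main one. Such correlations were not particular to 1027B. They were 0.427 in the 2-week experiment, 0.318 with doxycycline and 0.623 with trametinib in H1651. Whether the replicate number pairs libraries is not known for any line. The members and lists were chosen with earlier results of these data known. One allele of the mouse lines is not reported here.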

Additional observations from a re-analysis of the deposited data

Results flagged for a closer look

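In 10 pairs of comparisons, the treated libraries of one line or arm all lay above their controls and those of the other all lay below. How many of all genes show this pattern was not counted, so the number of pairs is no result about the members. Both changes were called in 1 of the 10 pairs, 1 of them in 5 pairs and neither in 4. With the replicate block in 1027B, an alternative fit, Lgr4 and Znrf3 were also called with trametinib (adjusted p = 0.0379 and 0.0164 in edgeR). Both changes are then called in 4 pairs. The values here are differences of log2 changes. Except for the pairs of 3154 arms, these differences were not tested, since the lines were counted in separate tables and the doses differ.

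For trametinib, Lgr4 differed by 3.25 between 3311 (50 nM, called higher) and 1027B (10 nM, not called without the block), and by -0.98 between 1027B and H358 (20 nM, called higher). Axin2 differed by -1.81 between 1027B, where it fell, and H358, where its 2 treated libraries lay above the vehicle libraries without being called. Rnf43 differed by 0.77 between 3311 and H358, neither called, and by 0.67 between 1027B, called higher, and H358. Znrf3 differed by 1.31 between 3311, called higher, and H358, called lower, and by 1.25 between 1027B, not called without the block, and H358.

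For MRTX1133, Wnt4 differed by 1.74 between 1027B (20 nM) and Hnf4a-deleted 3154 organoids (3 nM). Between the Hnf4a-intact and Hnf4a-deleted arms of 3154, Wnt7b differed by 0.74 and Wnt4 by 1.59. No change in these 3 pairs was called. The interaction term tested these last 2 differences in edgeR, and neither passed (adjusted p = 0.572 and 0.541).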

How the results depend on the processing

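With 2 libraries per group, single libraries decide many calls. Of called members, 142 fits under the other alternatives kept the call, 5 lost it and 0 reversed, and with 1 library left out 62 kept it and 30 lost it. The Wnt7b calls after Hnf4a deletion were kept in all of these. Of uncalled members, 24 fits gained a call and 1 changed sign under the other alternatives, and 13 and 56 did so with 1 library left out. The cause of these changes was not tested, beyond the smaller number of libraries.

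Counts of called members moved as follows. After Hnf4a deletion at 2 weeks 3 became 6 with the replicate block (adding Lgr4, adjusted p = 0.000725, Nkd1, 0.00855, and Axin2, 0.0223), 5 with DESeq2 (adding Lgr4 and Nkd1) and 1 to 4 with 1 library left out. In the 48 h experiment, 5 with vehicle became 3 to 6 with 1 left out, and 3 under MRTX1133 became 5 with DESeq2. With doxycycline in H1651 0 became 2 with the block (LEF1 and NKD1) and 0 to 1 with 1 left out. In 1027B, 2 with trametinib became 7 with the block, 4 with DESeq2 and 0 to 4 with 1 left out; 1 with MRTX1133 became 3, or 0 with only the groups compared, and 0 to 1 with 1 left out; 0 between the drugs became 1 with the block. In H358, 5 became 3 with at least 10 counts in every library, where WNT4 and LEF1 fell under the filter and were not tested. Over all genes H358 had 8871 called, and 7546 to 11457 over the alternatives with all libraries. With 1 library left out the log2 change ran from 1.08 to 2.29 for LEF1 and from -1.62 to -0.66 for WNT7A. With MRTX1133 in 3154, 1 after deletion became 0 with upper-quartile factors, with no filter, with the block and with any library left out, and 2 with only the groups compared, while 0 with Hnf4a intact became 0 to 1. Replicate numbers are shared labels in every experiment (correlations from -0.25 to 0.62), so the block is no pairing known from the design. The correlations in 1027B (0.243, 0.372 and 0.414) lay inside that range.

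Over all genes, the 2-week deletion called 1421 genes, 4563 with the block, 2311 with DESeq2 and 395 to 2790 with 1 library left out. Doxycycline called 247, 3048 with the block, 451 with DESeq2 and 232 to 412 with 1 left out. In 1027B trametinib called 3880, 6540 with the block and 1336 to 2754 with 1 left out, and MRTX1133 called 913, 3515 with the block, 1636 with DESeq2 and 138 to 349 with 1 left out. Trametinib in H1651 called 0, 1881 with the block, 47 with DESeq2 and 0 to 193 with 1 left out, and in 3311 5938 and 3772 to 6298 with 1 left out. MRTX1133 in 3154 called 54 with Hnf4a intact (0 to 330 over the other alternatives, 0 to 309 with 1 left out) and 717 after deletion (668 to 3932, and 0 to 23 with 1 left out). The deletion in the 48 h experiment called 4795 with vehicle (3154 to 4901, and 1668 to 5964 with 1 left out) and 4279 under MRTX1133 (1745 to 2805 with 1 left out).

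WNT7B in H358 was 0.046 with upper-quartile factors and -0.11 to 0.054 with 1 library left out. The other ranges that include both signs, all for uncalled members and with 1 library left out, follow. At 2 weeks they were -0.30 to 0.40 for Wnt7a, -0.45 to 4.25 for Axin2, -0.32 to 0.60 for Rnf43 and -0.029 to 0.72 for Znrf3. With doxycycline they were -0.16 to 0.44 for WNT7B, -0.091 to 0.055 for LGR4, -0.64 to 0.29 for LGR5, -0.62 to 0.050 for RNF43 and -0.0090 to 0.049 for ZNRF3. In 1027B Wnt7b ranged from -0.078 to 0.60 with trametinib and from -0.11 to 0.57 with MRTX1133, where Lgr5 ranged from -1.94 to 0.039. Between the drugs they were -0.29 to 0.18 for Wnt7b, -0.044 to 0.56 for Wnt7a, -1.35 to 0.33 for Wnt4, -0.13 to 0.15 for Axin2 and -0.21 to 0.067 for Lgr4. With trametinib in H1651 they were -0.12 to 0.043 for WNT7B, -1.12 to 0.45 for WNT4, -0.13 to 0.57 for AXIN2, -0.11 to 0.68 for NKD1, -0.36 to 0.35 for LGR4, -1.80 to 0.27 for LGR5, -0.55 to 0.54 for LEF1, -0.67 to 0.68 for RNF43 and -0.22 to 0.034 for ZNRF3. With MRTX1133 in intact 3154 they were -0.57 to 0.12 for Lgr4, -0.42 to 0.31 for Lgr5, -0.80 to 0.11 for Rnf43 and -0.48 to 0.44 for Znrf3, and after deletion -0.058 to 0.24 for Lgr4 and -0.028 to 0.20 for Znrf3. For the deletion in the 48 h experiment Znrf3 ranged from -0.24 to 0.68 with vehicle, and Rnf43 from -0.12 to 0.43 under MRTX1133. The interaction ranged from -0.021 to 0.66 for Lgr4 and from -0.35 to 0.57 for Znrf3.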
